A study of Mus musculus with 6 samples.

Results

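The genes of prostaglandin, thromboxane, leukotriene and lipoxygenase metabolism were examined in RNA-seq of whole mouse uterus at pseudopregnancy day (PPD) 4.5. They were chosen by a rule on gene symbols, from the phospholipases A2 and cyclooxygenases to the receptors and the enzymes of breakdown, and 60 of 23420 genes met the choice and are called eicosanoid genes here. Control females carried the floxed allele without Cre (*Foxo1f/f*), and knockout females carried the same floxed *Foxo1* with *PgrCre/+*, and are called *Foxo1d/d*. All were C57BL/6J mice of 8 weeks that had been mated with vasectomized males, so that no embryo was present. Each genotype was sequenced as 3 libraries, each from RNA pooled from 2 females. Cre at the *Pgr* locus acts in the epithelium and stroma of the uterus and also in the pituitary and the ovary, while the blood vessels of the uterus keep FOXO1. The values are the authors' mean raw counts per genotype, with a mean of 26125014 counts on genes per library in *Foxo1f/f* and 27257963 in *Foxo1d/d*. Counts of single pools were not used here, so no value below has a spread between pools and no difference has a test or a replicate check.

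Prostanoids and leukotrienes are made from arachidonate, which phospholipases A2 release from membranes. Cyclooxygenases turn it into the precursor of all prostanoids, terminal synthases make each prostanoid from that, and lipoxygenases oxygenate the same fatty acid into leukotrienes and hydroxy acids. The products act near their source through G protein-coupled receptors, and in the mouse uterus prostaglandins are known for their part in vascular permeability at implantation, in decidualization and in contraction.

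*Foxo1* itself averaged 3941 counts in *Foxo1f/f* against 1456 in *Foxo1d/d* uteri, which fits the labels. This is a log2 ratio of -1.50, with a 95% counting interval of -1.55 to -1.45. The targeted segment is the second coding exon, so reads from the other exons can remain. *Pgr* had mean counts of 5469 and 6551 (log2 ratio 0.20), and *Esr1* had 5694 and 6177 (log2 ratio 0.06). The log2 ratio compares the mean counts of *Foxo1d/d* with those of *Foxo1f/f*, each raised by a pseudocount of 1 and divided by the total of its genotype. The counting interval is the Wilson interval of a gene's summed counts over the 3 libraries and covers counting error only. Folds are ratios of CPM, counts per 1000000 counts of the genotype, without the pseudocount. The 1.5-fold limit and the other fold limits were applied to the log2 ratio, which holds the pseudocount. Where a pair of values is given without names, *Foxo1f/f* comes first and *Foxo1d/d* second.

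Of the 60 genes, 49 averaged 10 counts or more over both genotypes. Of these 49, 7 were at least 1.5-fold higher in *Foxo1d/d* (14.3%), against 5.43% of the 15696 genes with that count, and 4 were at least 1.5-fold lower (8.16%), against 3.51%. The 7 higher genes were *Alox15*, *Alox12e*, *Pla2g4a*, *Pla2g5*, *Pla2g2d*, *Ptgs2* and *Ltb4r1*, and the 4 lower genes were *Ptgdr*, *Ptger2*, *Pla2g7* and *Acsl4*. The median log2 ratio of the 49 genes was 0.16, beside 0.02 over all 15696 genes, and the median absolute log2 ratio was 0.23 beside 0.14. The ratio lay above 0 for 31 of the 49 genes and below 0 for 18, beside 8649 and 7047 of all 15696 genes. The remaining 11 genes were under the count limit in these uteri. These were *Alox12b*, *Alox8*, *Ptgds* and 8 phospholipase genes, of which *Pla2g12b* had no count in either genotype. The RNA comes from whole uterus, so that fewer cells of a type and less RNA per cell cannot be told apart for any gene.

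**Figure D1:**
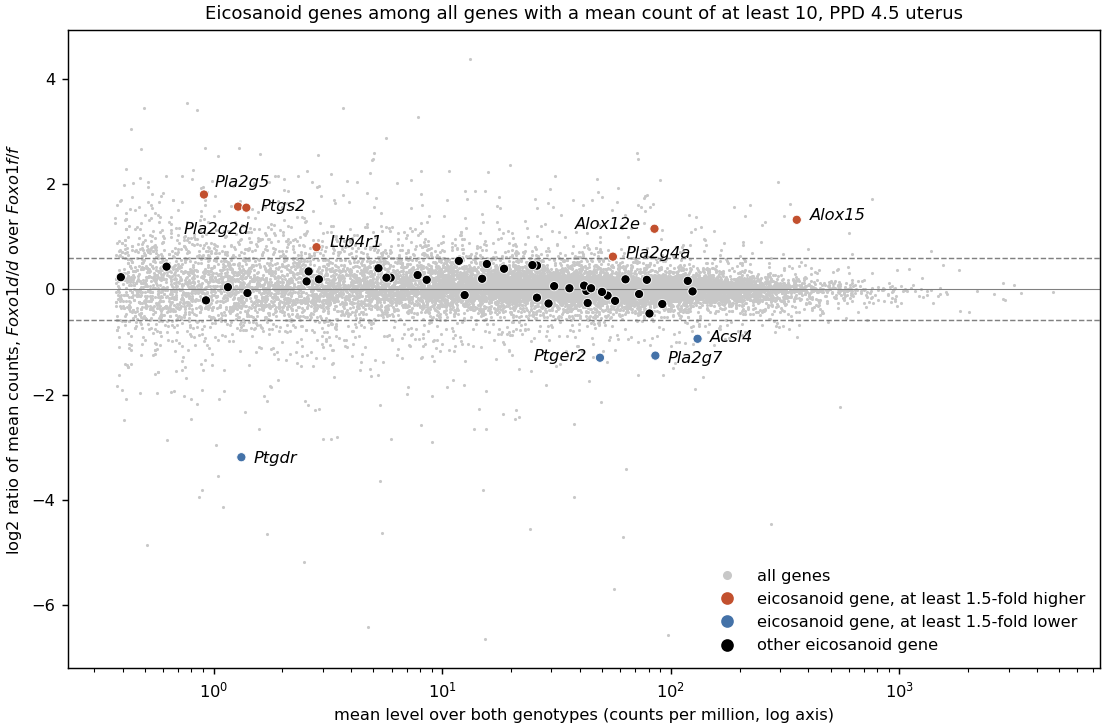
Each point is a gene that averaged 10 counts or more, with its mean level in CPM on a log axis and its log2 ratio between *Foxo1d/d* and *Foxo1f/f*, and dashed lines mark 1.5-fold. The 49 eicosanoid genes are drawn large, with the 7 higher genes in red and the 4 lower genes in blue.

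The group labelled release and activation of arachidonate held 5 of the 11 genes past 1.5-fold. It takes in all phospholipase A2 genes by name, with *Acsl4*, and not every gene in it releases arachidonate. Among the 14 genes of this group with enough counts, 3 were higher and 2 lower, and their median log2 ratio was -0.01. The 2 lower genes, *Pla2g7* and *Acsl4*, have other roles, given below. *Pla2g4a* encodes the cytosolic phospholipase A2 that prefers arachidonate. It averaged 1148 counts in *Foxo1f/f* against 1843 in *Foxo1d/d*, a 1.54-fold higher level (log2 ratio 0.62, counting interval 0.56 to 0.68), which is close to the 1.5-fold limit, and the interval reaches below it. Of the secreted phospholipases, *Pla2g5* went from a mean count of 10 to 39 (log2 ratio 1.80, counting interval 1.33 to 2.48). *Pla2g2d* went from 16.3 to 52.7 (log2 ratio 1.57, counting interval 1.17 to 2.09). Both secreted enzymes were thus higher from a low level in *Foxo1f/f*, and their intervals are wide. The opposite direction was seen for *Pla2g7*, whose secreted product breaks down platelet-activating factor and oxidized phospholipids. *Pla2g7* had mean counts of 3156 and 1371, a 2.40-fold lower level in *Foxo1d/d* (log2 ratio -1.26, counting interval -1.32 to -1.21). *Acsl4*, which couples free arachidonate to coenzyme A, had mean counts of 4498 and 2443, a 1.92-fold lower level (log2 ratio -0.94, counting interval -0.98 to -0.90). The remaining 9 counted phospholipase genes had log2 ratios from -0.27 (*Pla2g4b*) to 0.22 (*Pla2g10*).

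Levels of single eicosanoid genes were compared with each other as CPM per kb of exon. On that scale *Pla2g7* was the most abundant phospholipase gene in both genotypes, at 41.6 CPM per kb in *Foxo1f/f* against 17.3 in *Foxo1d/d*. Its share of the summed level of the 21 phospholipase genes was 45.1% in *Foxo1f/f* against 23.8% in *Foxo1d/d*. The share of *Pla2g4a* was 7.46% and 14.6%. The other 20 phospholipase genes without *Pla2g7* summed to 50.6 CPM per kb in *Foxo1f/f* against 55.4 in *Foxo1d/d*, so the lower sum of the family, 92.2 against 72.7, came from *Pla2g7*. *Pla2g4b* is a less certain value, since 62.4% of its 90-base stretches, the length of the reads, also lie in transcripts of other genes.

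The cyclooxygenase genes differed in direction. *Ptgs1*, the main cyclooxygenase gene of these uteri, averaged 1231 counts in *Foxo1f/f* against 1075 in *Foxo1d/d*, for a log2 ratio of -0.26 (counting interval -0.32 to -0.19) that is under 1.5-fold. *Ptgs2*, the inducible gene, had mean counts of 18 and 57, a 3.04-fold higher level (log2 ratio 1.55, counting interval 1.16 to 2.04). Per length, *Ptgs2* was at 0.150 CPM per kb in *Foxo1f/f* against 0.457 in *Foxo1d/d*, while *Ptgs1* was at 12.1 and 10.2. *Ptgs1* therefore held 98.8% of the summed cyclooxygenase level in *Foxo1f/f* against 95.7% in *Foxo1d/d*, and the summed level per length was 12.3 and 10.6 CPM per kb.

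None of the 6 terminal synthase genes with enough counts was past 1.5-fold, and their median log2 ratio was 0.28. *Ptges* encodes the inducible synthase of prostaglandin E2 that works with PTGS2. It averaged 546 counts in *Foxo1f/f* against 782 in *Foxo1d/d*, for a log2 ratio of 0.46 (counting interval 0.37 to 0.55). *Ptges2* had mean counts of 421 and 577 (log2 ratio 0.39), and *Ptges3*, the cytosolic form that is also a cochaperone of HSP90, had 2923 and 3417 (log2 ratio 0.16). The 3 genes of prostaglandin E2 synthesis thus all had ratios above 0 and all stayed under the 1.5-fold limit. *Ptges3* had the highest level per length of the terminal synthases, 50.5 CPM per kb in *Foxo1f/f* against 56.5 in *Foxo1d/d*, although 17.8% of its 90-base stretches also lie in other transcripts, among them a pseudogene. *Ptgis*, the prostacyclin synthase, had mean counts of 1954 and 1921 (log2 ratio -0.09). The hematopoietic prostaglandin D synthase *Hpgds* had 1128 and 1151 (log2 ratio -0.03), and the other D synthase, *Ptgds*, was under the count limit at 4.67 and 9.67. The thromboxane synthase *Tbxas1* had the highest ratio of the 6 counted genes, with mean counts of 251 and 382 (log2 ratio 0.54, counting interval 0.41 to 0.68).

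The prostanoid receptors held the lowest ratio of all 49 genes. *Ptgdr* encodes the DP1 receptor of prostaglandin D2. It averaged 63 counts in *Foxo1f/f* against 6.33 in *Foxo1d/d*, a 10.4-fold lower level (log2 ratio -3.19, counting interval -4.05 to -2.70). With a pseudocount of 5 its log2 ratio was -2.65, and it falls under a limit of 50 mean counts. *Ptger2*, the EP2 receptor of prostaglandin E2, had mean counts of 1821 and 769, a 2.47-fold lower level (log2 ratio -1.30, counting interval -1.37 to -1.23). Both receptors signal through Gs and cyclic AMP, and they were the 2 of 8 receptor genes past 1.5-fold. *Ptger1* (EP1) had mean counts of 932 and 989.7, for a log2 ratio of 0.02 that became 0.00 with the median gene set to a ratio of 1. *Ptger3* (EP3) had 1601 and 1438 (log2 ratio -0.22), and *Ptger4* (EP4), the other E2 receptor that couples to Gs, had 2627 and 2259 (log2 ratio -0.28). These ratios are all under 1.5-fold. *Ptgfr*, the receptor of prostaglandin F2α, had mean counts of 716 and 668 (log2 ratio -0.16). The prostacyclin receptor *Ptgir* had 209 and 248 (log2 ratio 0.18), and the thromboxane receptor *Tbxa2r* had 118 and 163 (log2 ratio 0.40). The median log2 ratio of the 8 receptor genes was -0.19.

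Per length, *Ptger2* was close to *Ptger4* in *Foxo1f/f*, at 13.4 against 15.1 CPM per kb, and in *Foxo1d/d* it was the lowest of the 4 EP genes, at 5.44. Its share of the summed EP level was 29.3% in *Foxo1f/f* against 16.1% in *Foxo1d/d*. The shares of *Ptger4* were 33.0% and 36.8%, those of *Ptger3* 23.5% and 27.4%, and those of *Ptger1* 14.3% and 19.7%. The share of *Ptger1* is uncertain, since 57.3% of its 90-base stretches are not unique to it, and 12.6% of those of *Ptger4* are shared too. A split by coupling was chosen after the values were seen. The 4 receptor genes that couple to Gs (*Ptger2*, *Ptger4*, *Ptgir* and *Ptgdr*) summed to 31.7 CPM per kb in *Foxo1f/f* against 20.7 in *Foxo1d/d*, and without *Ptger2* and *Ptgdr* to 17.5 and 15.2. Those that couple to Gi or Gq (*Ptger1*, *Ptger3*, *Ptgfr* and *Tbxa2r*) summed to 23.7 and 22.7. The first sum includes *Ptger4* and the second *Ptger1*, with the shared stretches given above. *Ptgdr* added little to the first sum in either genotype, at 0.757 CPM per kb in *Foxo1f/f* and 0.0729 in *Foxo1d/d*. Of its 90-base stretches, 21.1% also lie in transcripts of 2 predicted gene models, which makes its count less certain than that of *Ptger2* (3.13%).

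**Figure D2:**
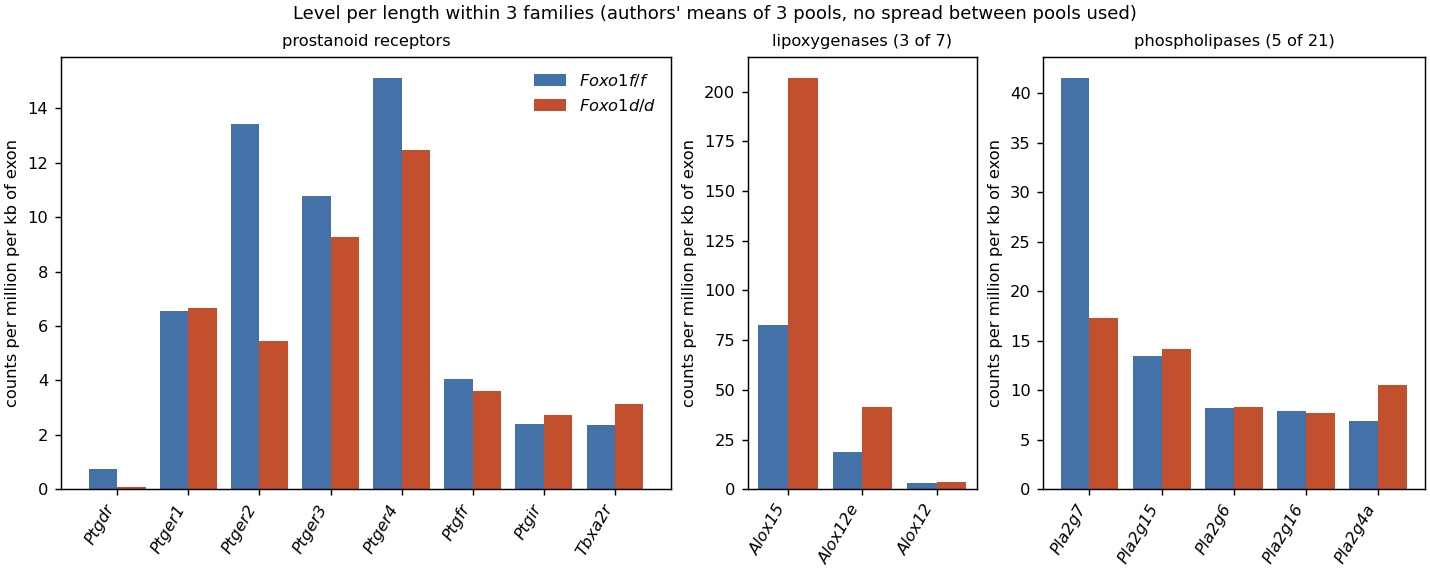
Bars start at 0 and give the level in CPM per kb of exon in *Foxo1f/f* (blue) and *Foxo1d/d* (red) for the 8 prostanoid receptors, 3 of 7 lipoxygenases and 5 of 21 phospholipases, with a scale of its own for each family. *Ptger2* stands next to *Ptger4* only in *Foxo1f/f*, *Alox15* is at 82.7 and 207, and *Pla2g7* is at 41.6 and 17.3.

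Uptake and breakdown of prostaglandins held 5 genes, all with enough counts and none past 1.5-fold, with a median log2 ratio of 0.06. *Slco2a1*, the prostaglandin transporter that takes them up into cells, had mean counts of 1921 and 2276 (log2 ratio 0.18). *Abcc4*, an exporter of prostaglandins and cyclic nucleotides, had 2438 and 1852 (log2 ratio -0.46, counting interval -0.51 to -0.41). *Hpgd*, the dehydrogenase that starts the breakdown of prostaglandin E2 and F2α, had 1437 and 1383 (log2 ratio -0.12). The reductases *Ptgr1* and *Ptgr2*, which act after it, had log2 ratios of 0.06 and 0.19, and 28.9% of the 90-base stretches of *Ptgr2* are shared. *Hpgd* ranked in place 4 of the 60 genes by level per length in both genotypes, at 32.7 and 30.1 CPM per kb, so the enzyme of breakdown stood above *Ptgs1* in both.

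The 7 lipoxygenase genes summed to 106 CPM per kb in *Foxo1f/f* against 253 in *Foxo1d/d*. *Alox15*, which oxygenates arachidonate and linoleate and is the mouse leukocyte-type enzyme, averaged 5303 counts in *Foxo1f/f* against 13846 in *Foxo1d/d*. This is 2.50-fold higher (log2 ratio 1.32, counting interval 1.30 to 1.35). *Alox12e*, an epidermal-type lipoxygenase, had mean counts of 1374 and 3189, 2.23-fold higher (log2 ratio 1.15, counting interval 1.10 to 1.21). Neither shares any 90-base stretch with transcripts of another gene, so reads of the length used tell them apart. *Alox12*, the platelet-type enzyme, had mean counts of 363 and 436 (log2 ratio 0.20), and *Alox5* had 70.3 and 84 (log2 ratio 0.19, counting interval -0.07 to 0.46). All 5 lipoxygenase genes with enough counts had ratios above 0, 2 of them past 1.5-fold, with a median log2 ratio of 0.43. *Aloxe3* had a mean count of only 13.7 and 19.7 (counting interval of the log2 ratio -0.11 to 1.04).

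Per length, *Alox15* was the most abundant of all 60 genes in both genotypes, at 82.7 CPM per kb in *Foxo1f/f* against 207 in *Foxo1d/d*. *Alox12e* stood in place 8 in *Foxo1f/f*, at 18.6 CPM per kb, and in place 3 in *Foxo1d/d*, at 41.4. Within the family *Alox15* held 78.4% of the summed level in *Foxo1f/f* and 81.7% in the knockout, and *Alox12e* held 17.6% and 16.3%. Together *Alox15* and *Alox12e* made up 19.7% of the summed level of the 60 genes in *Foxo1f/f* and 39.6% in *Foxo1d/d*. The sum of all 60 genes was 516 CPM per kb in *Foxo1f/f* against 627 in *Foxo1d/d*, and without these 2 genes it was 414 and 379. The higher sum in *Foxo1d/d* thus rested on this pair.

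**Figure D3:**
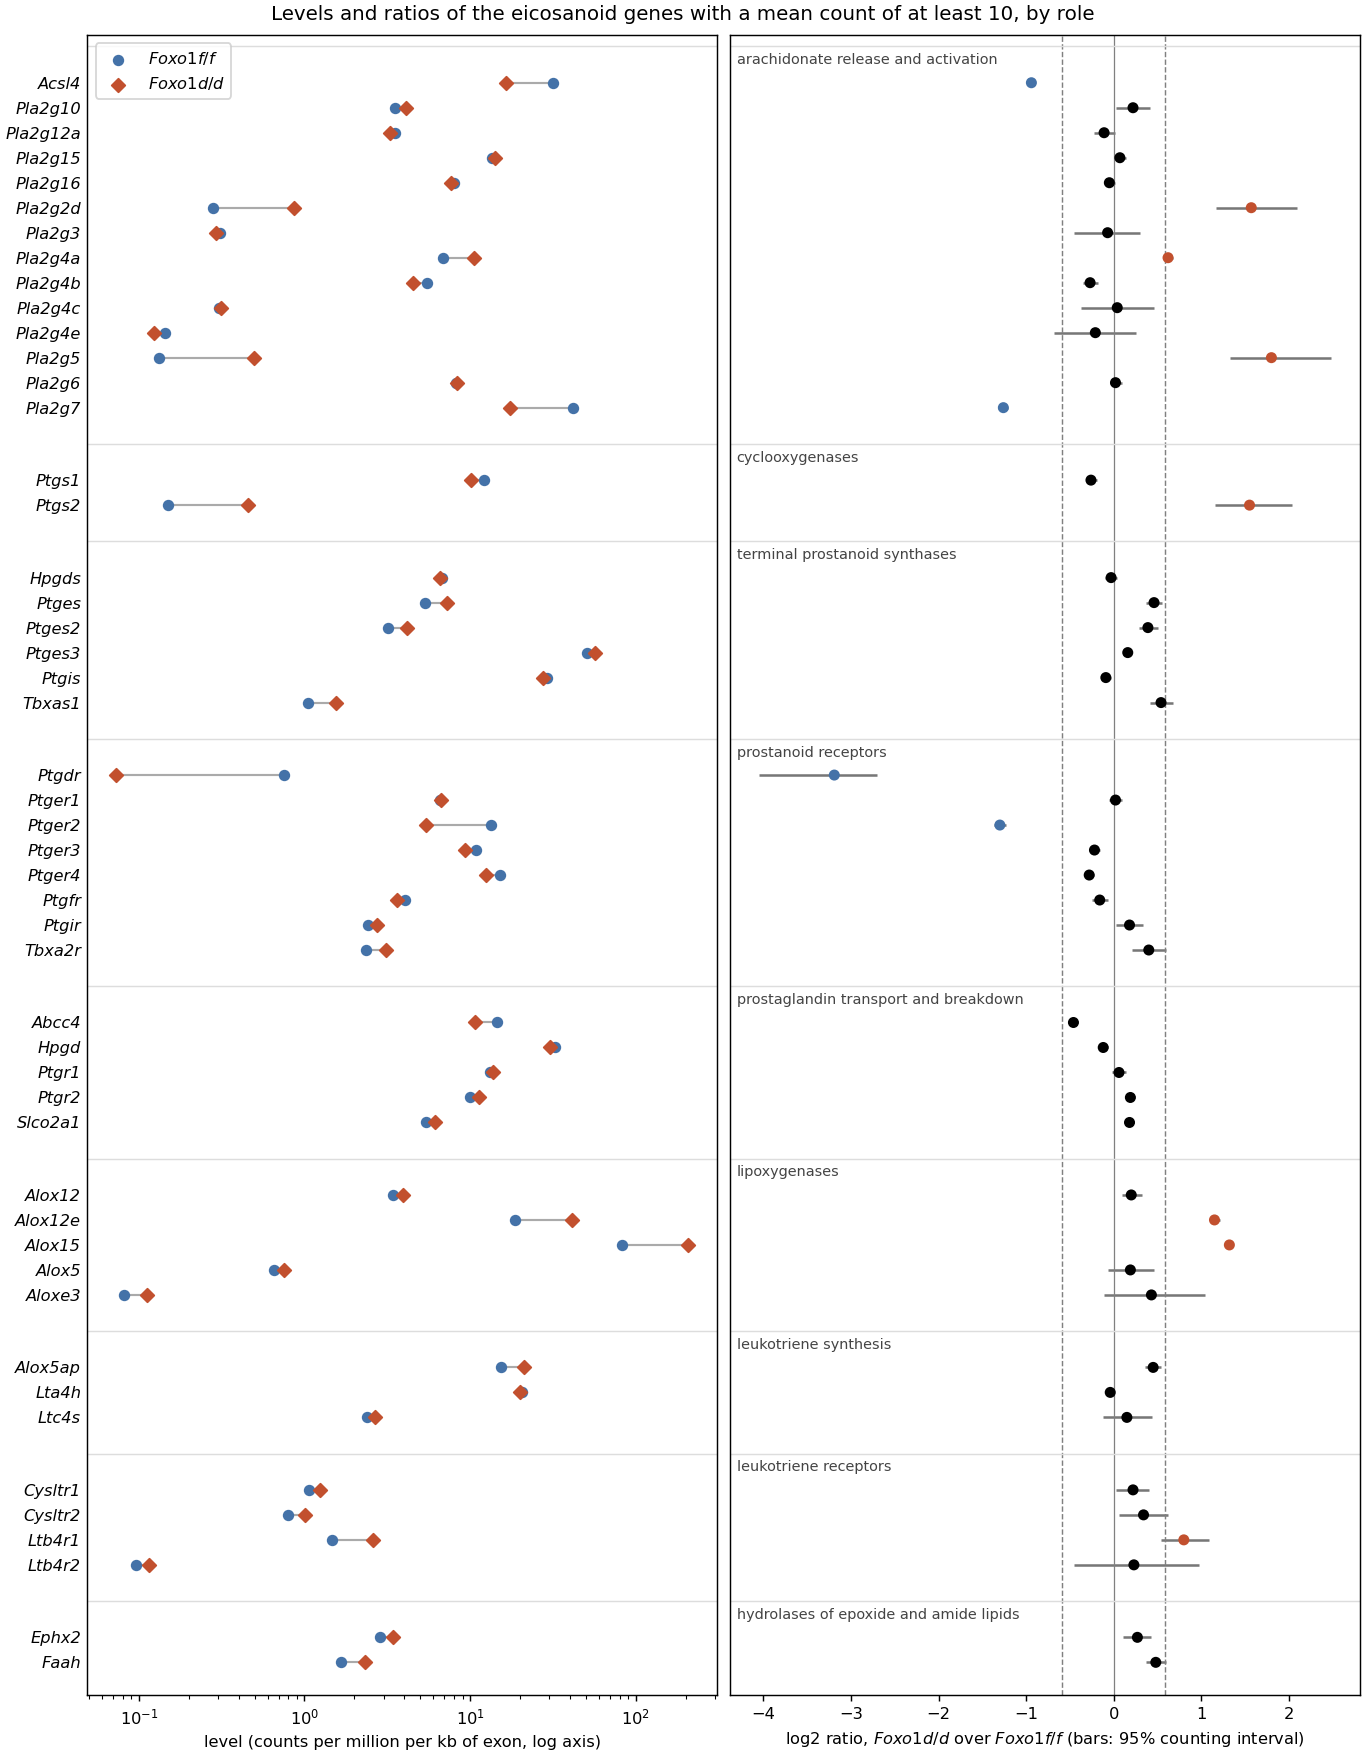
The left panel gives the level of the 49 genes in CPM per kb of exon on a log axis, for *Foxo1f/f* (circles) and *Foxo1d/d* (diamonds), and the right panel their log2 ratio with its 95% counting interval, which is narrower than the point for abundant genes, and dashed lines at 1.5-fold. Genes are grouped by role, with *Alox5* shown among the lipoxygenases, and points past the lines are coloured.

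The steps from 5-lipoxygenase to the leukotrienes showed no gene past 1.5-fold among *Alox5*, *Alox5ap*, *Lta4h* and *Ltc4s*, with a median log2 ratio of 0.17. *Alox5ap*, the membrane protein that presents arachidonate to ALOX5, had mean counts of 573 and 818 (log2 ratio 0.45, counting interval 0.36 to 0.54). *Lta4h*, which makes leukotriene B4, had 3295 and 3348 (log2 ratio -0.04), and *Ltc4s*, which makes leukotriene C4, had 63 and 73.3 (log2 ratio 0.15). *Alox5* was thin beside its partners, at 0.656 CPM per kb in *Foxo1f/f* against 15.5 for *Alox5ap* and 20.7 for *Lta4h*. Of the 4 leukotriene receptor genes, *Ltb4r1*, the high-affinity receptor of leukotriene B4, was past the limit. It had mean counts of 53.3 and 98, 1.76-fold higher in *Foxo1d/d* (log2 ratio 0.80, counting interval 0.54 to 1.09), an interval that reaches below 1.5-fold. The others, *Ltb4r2*, *Cysltr1* and *Cysltr2*, had log2 ratios from 0.22 to 0.34. The hydrolases *Ephx2*, which acts on fatty acid epoxides, and *Faah*, which acts on fatty acid amides such as anandamide, had log2 ratios of 0.27 and 0.48.

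A wider set of 47 genes around the pathway covers fatty acid remodelling, carbonyl and aldo-keto reductases and further transporters and receptors. Of 44 with enough counts, 4 were higher (9.09%) and 1 lower (2.27%), against 5.43% and 3.51% of all genes with that count, and the median log2 ratio was 0.04. *Cbr2*, a carbonyl reductase, had mean counts of 922 and 3201, 3.33-fold higher in *Foxo1d/d* (log2 ratio 1.73, counting interval 1.67 to 1.80). *Fpr2*, a formyl peptide receptor that also binds lipoxins, had 7.67 and 23 (log2 ratio 1.41, counting interval 0.85 to 2.20). *Akr1c18*, an aldo-keto reductase that inactivates progesterone and can make prostaglandin F2α, had 10.7 and 21.7 (log2 ratio 0.90, counting interval 0.35 to 1.57). *Cnr2*, the cannabinoid receptor of immune cells, had 41.7 and 67.3 (log2 ratio 0.62, counting interval 0.31 to 0.95). The lower gene was *Slco4a1*, an organic anion transporter, with 303 and 129 (log2 ratio -1.29, counting interval -1.47 to -1.13). For *Fpr2*, *Akr1c18* and *Cnr2* the counting interval reaches below 1.5-fold or rests on few counts. The gene *Akr1b3* is listed at 0 in both genotypes, which is doubtful as a level because the gene is widely expressed.

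Among the 11 genes past 1.5-fold, 4 pairs lie within 200 kb of each other, and both genes of each pair moved in the same direction. How often close genes past the limit share a direction among all genes was not counted. The 4 pairs were taken with both genes past the limit, and other close eicosanoid genes were not both past it. *Ltb4r1* and *Ltb4r2*, 1895 bases apart, had log2 ratios of 0.80 and 0.23. The counting interval of *Ltb4r2*, -0.45 to 0.97, holds both values. *Alox12b* and *Alox8*, 14093 bases apart and both under the count limit, had -0.97 and 0.88. Their counting intervals, -2.77 to 0.12 and -0.02 to 2.20, both hold 0. Positions are those of RefSeq on GRCm38.p6. *Alox12e* (chr11:70315610-70322720) and *Alox15* (chr11:70344147-70390538) are 21426 bases apart and were both higher, while *Alox12*, 60229 bases from *Alox12e*, had a log2 ratio of 0.20 and *Pelp1*, 2342 bases from *Alox15*, had 0.10. Farther off but within 200 kb of both, *Slc16a11* (log2 ratio -1.18) and *Vmo1* (-0.81) were lower and *Clec10a* (0.74) was higher. *Ptgdr* (chr14:44851235-44859375) and *Ptger2* (chr14:44988111-45003820) are 128735 bases apart and were both lower, but *4930431P03Rik*, which lies between them, was higher, with mean counts of 18.7 and 43.3 (log2 ratio 1.11). *Pla2g4a* (chr1:149829618-149961290) and *Ptgs2* (chr1:150100031-150108234) are 138740 bases apart, with no other gene of the table within 200 kb of either, and both were higher. *Pla2g2d* and *Pla2g5* on chromosome 4 are 17194 bases apart and were both higher, while *Rnf186*, 103556 bases from *Pla2g5* and outside the pair, was lower (log2 ratio -2.20). *Pla2g7* overlaps *1700071M16Rik*, which had mean counts of 105 and 43.7 (log2 ratio -1.31). The strand of the reads was not stated, so the counts of these overlapping genes cannot be told apart in full, although 4.09% of the 90-base stretches of *Pla2g7* are shared. *Slc25a27*, 25536 bases from *Pla2g7*, was also lower, with mean counts of 1542 and 1029 (log2 ratio -0.65). Within 200 kb of the 11 genes lie 58 genes with enough counts that are not eicosanoid genes. Of these 58, 3 were higher and 6 lower, beside 5.43% and 3.51% of all genes, and 3 of the 6 lower genes lie near *Pla2g7*.

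**Figure D4:**
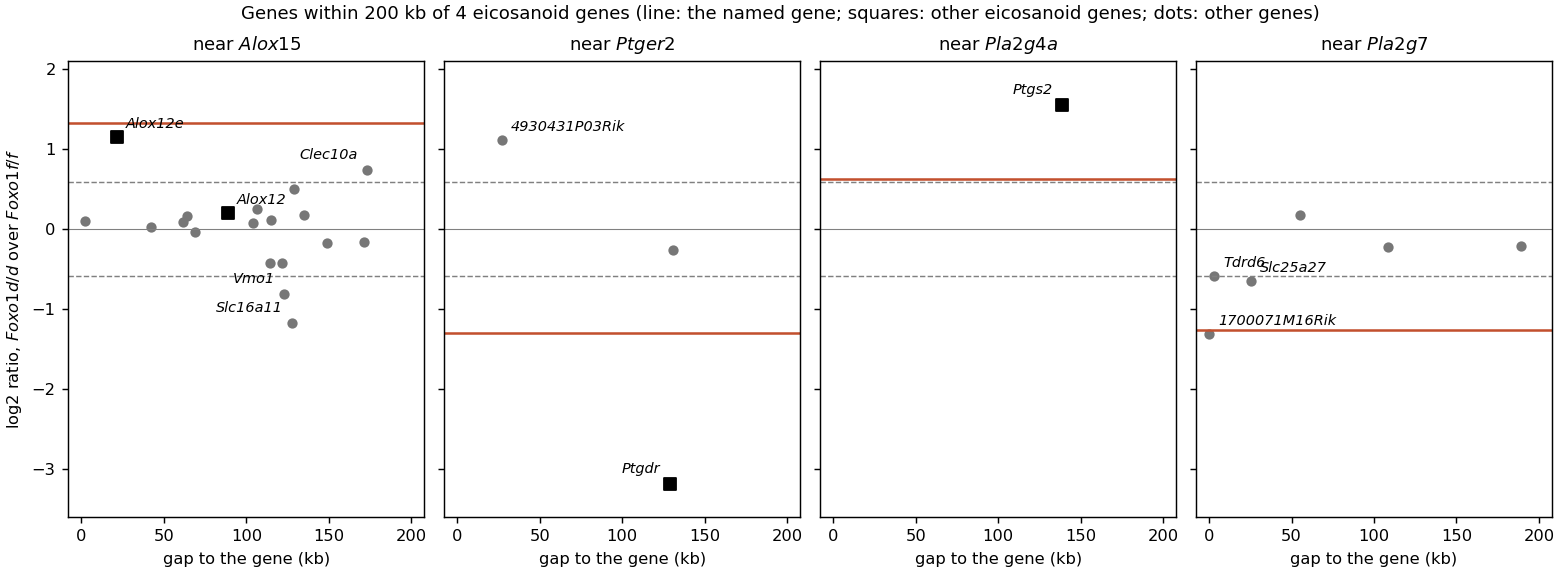
Log2 ratio between *Foxo1d/d* and *Foxo1f/f* against the gap in kb to 4 genes, for genes that averaged 10 counts or more within 200 kb, with the red line at the named gene's own ratio, squares for other eicosanoid genes and dots for the rest. *Alox12e* and *Ptgdr* lie on the same side as *Alox15* and *Ptger2*, while most other neighbours of *Alox15* lie between the dashed lines at 1.5-fold.

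The promoters of these neighbours are printed because the genes moved together. Of the 60 genes, 49 matched the RefSeq promoter table (GRCm38.p6), with 55 windows of 250 bases before a start, and 10 of the 11 genes past 1.5-fold matched, with 12 windows. *Alox15* had no entry. The forkhead motif GTAAACA, which reads as TGTTTAC on the other strand, was in 3.17% of all 32851 windows, in 1 of the 55 windows and in 0 of the 12. Its shorter core AAACA, part of it and read as TGTTT on the other strand, was in 46.4% of all windows, in 22 of the 55 and in 5 of the 12. The hexamer AGAACA, which reads as TGTTCT on the other strand and is bound by PGR and related steroid receptors, was in 16.1% of all windows, in 12 of the 55 and in 3 of the 12. A match is a description and not a site of binding, and no match says only that the letters are not in this window. The windows run 5′ to 3′ on the strand of the gene, with the forkhead core in capitals. Those of *Ptgdr* (chr14:44859376-44859625, minus strand) and *Ptger2* (chr14:44987861-44988110, plus strand) come first, then those of *Pla2g4a* at the upstream start (chr1:149961291-149961540, minus strand), *Ptgs2* (chr1:150099781-150100030, plus strand) and *Alox12e* (chr11:70322531-70322780, minus strand).
Ptgdr: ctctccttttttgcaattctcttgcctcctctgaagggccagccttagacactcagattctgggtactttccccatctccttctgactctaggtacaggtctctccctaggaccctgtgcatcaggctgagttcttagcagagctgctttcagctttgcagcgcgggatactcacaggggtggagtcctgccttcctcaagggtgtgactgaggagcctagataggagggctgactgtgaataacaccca
Ptger2: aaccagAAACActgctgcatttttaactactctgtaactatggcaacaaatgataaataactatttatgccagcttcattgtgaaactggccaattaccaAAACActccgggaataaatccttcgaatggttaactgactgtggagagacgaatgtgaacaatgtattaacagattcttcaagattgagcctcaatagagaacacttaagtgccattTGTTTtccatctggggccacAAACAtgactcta
Pla2g4a: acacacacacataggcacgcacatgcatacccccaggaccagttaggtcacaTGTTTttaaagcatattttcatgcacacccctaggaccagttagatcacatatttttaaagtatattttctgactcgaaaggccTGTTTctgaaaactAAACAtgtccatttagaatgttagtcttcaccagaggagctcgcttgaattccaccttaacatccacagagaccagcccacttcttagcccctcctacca
Ptgs2: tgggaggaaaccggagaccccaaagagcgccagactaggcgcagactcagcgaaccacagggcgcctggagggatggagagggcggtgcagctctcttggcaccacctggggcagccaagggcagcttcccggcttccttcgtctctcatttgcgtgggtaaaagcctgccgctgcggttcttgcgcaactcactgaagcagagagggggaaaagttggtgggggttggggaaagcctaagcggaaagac
Alox12e: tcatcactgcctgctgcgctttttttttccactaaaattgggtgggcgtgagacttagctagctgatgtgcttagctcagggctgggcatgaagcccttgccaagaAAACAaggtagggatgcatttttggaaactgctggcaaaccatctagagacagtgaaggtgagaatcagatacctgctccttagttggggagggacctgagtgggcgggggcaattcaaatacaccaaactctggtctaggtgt

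The printed windows of the 2 pairs differ in their cores. That of *Ptger2* holds 4 forkhead cores, the nearest starting 13 bases before the start, and that of *Ptgdr* holds 0. The window of *Pla2g4a* holds 3 and that of *Ptgs2* 0, and the window of *Alox12e* holds 1, which starts 144 bases before the start. The start used for *Alox12e* lies inside its span (chr11:70315610-70322720), so its window overlaps the gene and this core lies within it. Of the windows not printed, that of *Pla2g2d* holds 3 and both of *Pla2g5* hold 0. The share of G and C was 38.0% for *Ptger2* and 53.2% for *Ptgdr*, and it was 43.2% for *Pla2g4a* and 61.6% for *Ptgs2*. The hexamer was found in the windows of *Ptger2* and *Pla2g7* and, for *Pla2g4a*, only in its other window, which is not printed.

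Because several of these genes are known from particular cell types, markers of 13 cell types were set beside them, and a marker is called counted where it averaged 10 counts or more. Each list is given as a sum in CPM, followed by the gene that adds most to the total of the 2 sums, which need not be the first in each. Adipocyte markers were higher in 6 of 6 genes and summed to 16.2 CPM in *Foxo1f/f* against 58.5 in *Foxo1d/d*, with *Cfd* at 5.96 and 21.8. Lymphocyte markers were higher in 3 of 6 genes, with sums of 31.9 and 41.8 CPM, and *Nkg7* was at 17.4 and 21.3. Neutrophil markers were higher in 2 of 5 counted genes, with sums of 13.7 and 19.5 CPM and *Csf3r* at 9.70 and 13.0. *Cxcr2* was 1.53-fold higher in CPM but under the limit with the pseudocount (log2 ratio 0.56). These lists thus moved in the direction of *Pla2g2d*, *Pla2g5*, *Ptgs2* and *Ltb4r1*, and their part in those ratios was not tested. None of 6 macrophage markers was past 1.5-fold, although all 6 ratios were above 0, with sums of 428 and 504 CPM and *C1qa* at 90.1 and 114. All counted macrophage and neutrophil ratios were above 0 (medians 0.23 and 0.56), in the direction of *Tbxas1* and *Alox5ap*. The part of these cells in those 2 ratios was not tested. Eosinophil markers had 1 of 4 counted genes lower, sums of 3.14 and 3.16 CPM, *Ccr3* at 1.01 and 1.19, and *Ear2* at 0 in both genotypes. Of these 4 ratios, 3 were above 0, in the direction of *Alox15*, and the median of the 4 was 0.23. The counting intervals of these 3 all reach below 0 (*Ccr3* -0.19 to 0.66, *Il5ra* -0.20 to 1.18, *Siglec5* -0.31 to 0.81). The lower gene, *Prg2*, went the other way, with a log2 ratio of -0.69 (counting interval -1.19 to -0.23). Macrophages and eosinophils are among the blood-derived cells known to hold ALOX15, and the folds of their sums were 1.18 for macrophages and 1.01 for eosinophils, beside 2.50 for *Alox15*. The eosinophil sum rests on few counts, and the part of these cells in the ratio of *Alox15* was not tested.

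Mast cell markers, set beside the receptor and synthase of prostaglandin D2, were lower in 1 of 7 genes. All 7 ratios were below 0 with a median of -0.44, in the direction of *Ptgdr*. The synthase *Hpgds* was near 0, with a log2 ratio of -0.03 (counting interval -0.10 to 0.04). The part of mast cells in the ratio of *Ptgdr* was not tested. The marker sums were 129 and 94.7 CPM, most of it from *Kit* at 84.0 and 61.7. Platelet markers, set beside *Alox12* and *Tbxas1*, were past 1.5-fold in 0 of 3 counted genes, although all 3 ratios were above 0, in the direction of both genes. Their part in those ratios was not tested, and their sums were 20.3 and 23.6 CPM, with *Itga2b* at 14.9 and 16.2. Of 5 epithelial markers, 1 was higher (*Krt19*) and 0 lower, with sums of 551 and 644 CPM and *Cdh1* at 169.9 and 183. Of 5 markers of uterine glands 4 were found, and 1 of these 4 was lower, *Spink3*, at 119 and 4.55 CPM, with sums of 171 and 51.5. *Foxa2*, the gland transcription factor, had a log2 ratio of 0.04. Stratified squamous markers were higher in 3 of 4 counted genes, with sums of 6.18 and 21.9 CPM and *Krt5* at 1.42 and 8.67, in the direction of *Alox12e*, an enzyme of stratified epithelium. Their part in the ratio of *Alox12e* was not tested. None of 6 stromal markers (5322 and 5234 CPM, *Col1a1* at 2739 and 2960.4), 6 myometrial markers (5974 and 4802 CPM, *Myh11* at 2323 and 1724) and 6 endothelial markers (1418 and 1187 CPM, *Pecam1* at 373 and 319) was past 1.5-fold. All 6 myometrial and all 6 endothelial ratios were below 0, with medians of -0.30 and -0.22, in the direction of *Ptger3*, *Ptger4* and *Ptgfr*, and their part in those ratios was not tested.

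**Figure D5:**
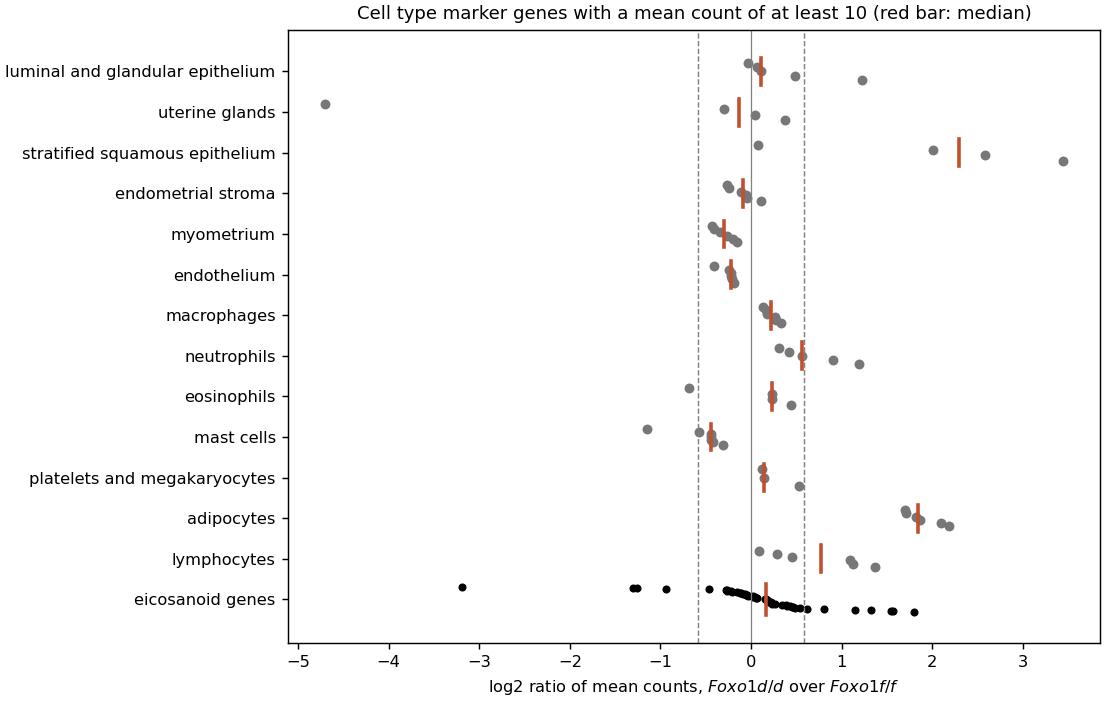
Each grey point is a marker gene that averaged 10 counts or more, at its log2 ratio between *Foxo1d/d* and *Foxo1f/f*, in 13 cell type lists, with the eicosanoid genes in black below, the median of each list as a red bar and dashed lines at 1.5-fold. Adipocyte markers all lie past the upper line, and *Spink3* of the gland list lies farthest to the left.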

How the data were processed

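RNA-seq libraries came from whole uterus at PPD 4.5, with 3 pools of 2 mice per genotype. The authors trimmed the reads, mapped them with STAR (mm10 in the study's methods, mm9 in the submitters' processing notes), removed duplicates with Picard and counted reads per RefSeq gene with HTSeq. The authors deposited mean raw counts per genotype for 23420 genes, and 100.0% of the means are whole after multiplication by 3 (tolerance 1e-06). The authors' edgeR columns (fold change, average log2 CPM, p-value and FDR) were not used. The planned test needs counts of single libraries, so ratios of means were computed instead, as given with the results, in Python 3.11.15 (numpy 2.4.6, pandas 2.3.3, scipy 1.17.1, matplotlib 3.10.9), tested on simulated data. Summed counts were 78375043 and 81773890. Exon lengths (union over isoforms) and 90-base stretches came from GENCODE M21, and lengths matched all 60 genes. Genes given in full are those past 1.5-fold and a fixed list of main enzymes and receptors, others by role. The genes, cell type marker lists and pathway lists were chosen with earlier results of these data known. Of the listed epithelial markers, 1 is not reported here. Alternatives were other scalings, pseudocounts, count limits and folds.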

Additional observations from a re-analysis of the deposited data

How the results depend on the processing

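The 11 genes past 1.5-fold stayed past it under 2 other scalings (the median gene set to a ratio of 1, and the upper quartile) and with pseudocounts of 0.1 and 5. The number of higher genes moved from 7 to 11 without a limit on low counts, to 4 with a mean count of at least 50 (*Ptgs2*, *Pla2g2d* and *Pla2g5* fall under that limit) and to 15 with a limit 25% above the other genotype in place of 1.5-fold, and it was 5 at 2-fold. Over all genes the higher ones were 1588 of 23420 without a limit, 528 of 13856 at 50 counts, 1968 of 15696 at 25% and 313 of 15696 at 2-fold. The number of lower genes was 4, and it lay between 3 and 5, with *Ptgdr*, the lowest ratio, lost at a mean count of at least 50. The lower ones over all genes were 1135, 357, 1412 and 220 at the same settings. With a mean count of at least 50, the median log2 ratio of the cyclooxygenases became -0.26 and that of the lipoxygenases 0.68, because *Ptgs2* and *Aloxe3* drop out. The other medians moved by less than the counting error of their typical gene. The log2 ratios of the 31 single genes examined stayed inside their counting intervals, except that of *Ptgdr*, which became -2.65 with a pseudocount of 5. The scalings shifted the median gene from 0.02 to 0.00. Leaving out genes that share over 10% of their 90-base stretches, chosen after seeing the data, left 7 higher and 3 lower genes, without *Ptgdr*. No paired analysis was possible because only mean counts per genotype were used, and for the same reason edgeR with a replicate block, DESeq2 and fits without a replicate were not run. Depth limits the genes under about 60 counts, whose intervals are wide.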
